A study of Mus musculus with 10 samples.

Results

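Amh, Ptgds, Aard, Mro, Cst9, Cldn11, Hsd17b1 and Hsd17b3 are products of differentiating Sertoli cells, the support cells of the testis cords. These 8 genes were taken by name from a table of 24470 gene entries, in which each symbol matched 1 row. RNA came from the paired testes of 5 C57BL/6 mouse embryos (E12.5), of which 1 testis received 75 µM GPI, an inhibitor of glycogen phosphorylase, and the other its vehicle, DMSO. Glycogen phosphorylase releases glucose units from glycogen. Culture lasted 48 h ex vivo with the mesonephros attached, and the gonad was then dissected away and sequenced whole, so that every cell type in it contributed RNA. There were 10 libraries, 5 for each treatment, paired by embryo (M1 to M5), and their depth ran from 10203679 to 15635322 counts.

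Sertoli cells arise from the supporting cell lineage of the gonad when Sry switches on Sox9. They then surround the germ cells, form cords and release signals that set the course of the other testis cells. Anti-Müllerian hormone, encoded by Amh, makes the Müllerian ducts regress, and prostaglandin D, made by the enzyme that Ptgds encodes, acts on Sox9 in neighbouring cells. In the fetal mouse testis the last step of testosterone synthesis, the reduction of androstenedione, takes place in Sertoli cells and uses Hsd17b1 and Hsd17b3, whereas the earlier steps take place in fetal Leydig cells. Cldn11 is a claudin of the tight junctions between Sertoli cells, and Cst9 belongs to the cystatins, a family of protease inhibitors.

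Values below are normalized counts, which are counts scaled by edgeR's TMM method to the mean effective library size. Both gonads of embryo M1 stood apart in these genes. In vehicle the M1 library had the lowest value of the 5 for 8 of 8 genes, and with GPI it again had the lowest for 8 of 8. Among all tested genes, 7.42% were lowest in M1 within both treatments. Of 9 tested Sertoli regulators 4 were lowest in both M1 libraries, as were 9 of 12 tested other Sertoli products. Summed markers of mesonephric tubules were 599, 119, 285, 137 and 59.4 normalized counts in the vehicle gonads of M1 to M5 and 178, 228, 115, 109 and 94.8 in the GPI gonads, so that M1 was the highest with vehicle and came after M2 with GPI. Pax8 had the most counts of these 6 markers in both treatments and was the one with enough counts to be tested, and the part of such tissue in the low M1 values was not tested. Because each GPI gonad is compared with the vehicle gonad of the same embryo, results are also given without M1 where they rest on it.

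With GPI 5 of the 8 genes rose, Ptgds, Aard, Mro, Hsd17b1 and Hsd17b3, by edgeR's quasi-likelihood test at a false discovery rate of 0.05 over all 13941 genes tested. The share called higher among all tested genes was 11.1%. Amh, Cst9 and Cldn11 did not pass the test, and a p that misses the threshold does not show that values did not differ. The edgeR test called 0 of 8 genes lower, against 11.9% of all tested genes, and at an unadjusted p under 0.05, with DESeq2 and with limma-voom the count was also 0. The median log2 fold change was 0.71 over the 8 genes and 0.02 over all tested genes. In 4 of 8 genes the GPI gonad was higher in all 5 embryos, as it was in 15.4% of tested genes. For 0 of 8 did all 5 GPI libraries lie above all 5 vehicle libraries, a separation seen in 7.1% of tested genes. Without embryo M1 the same test called 5 of the 8 genes higher. The count was 4 without M3 and 4 without the pairing by embryo, where Aard was lost.

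**Figure D1:**
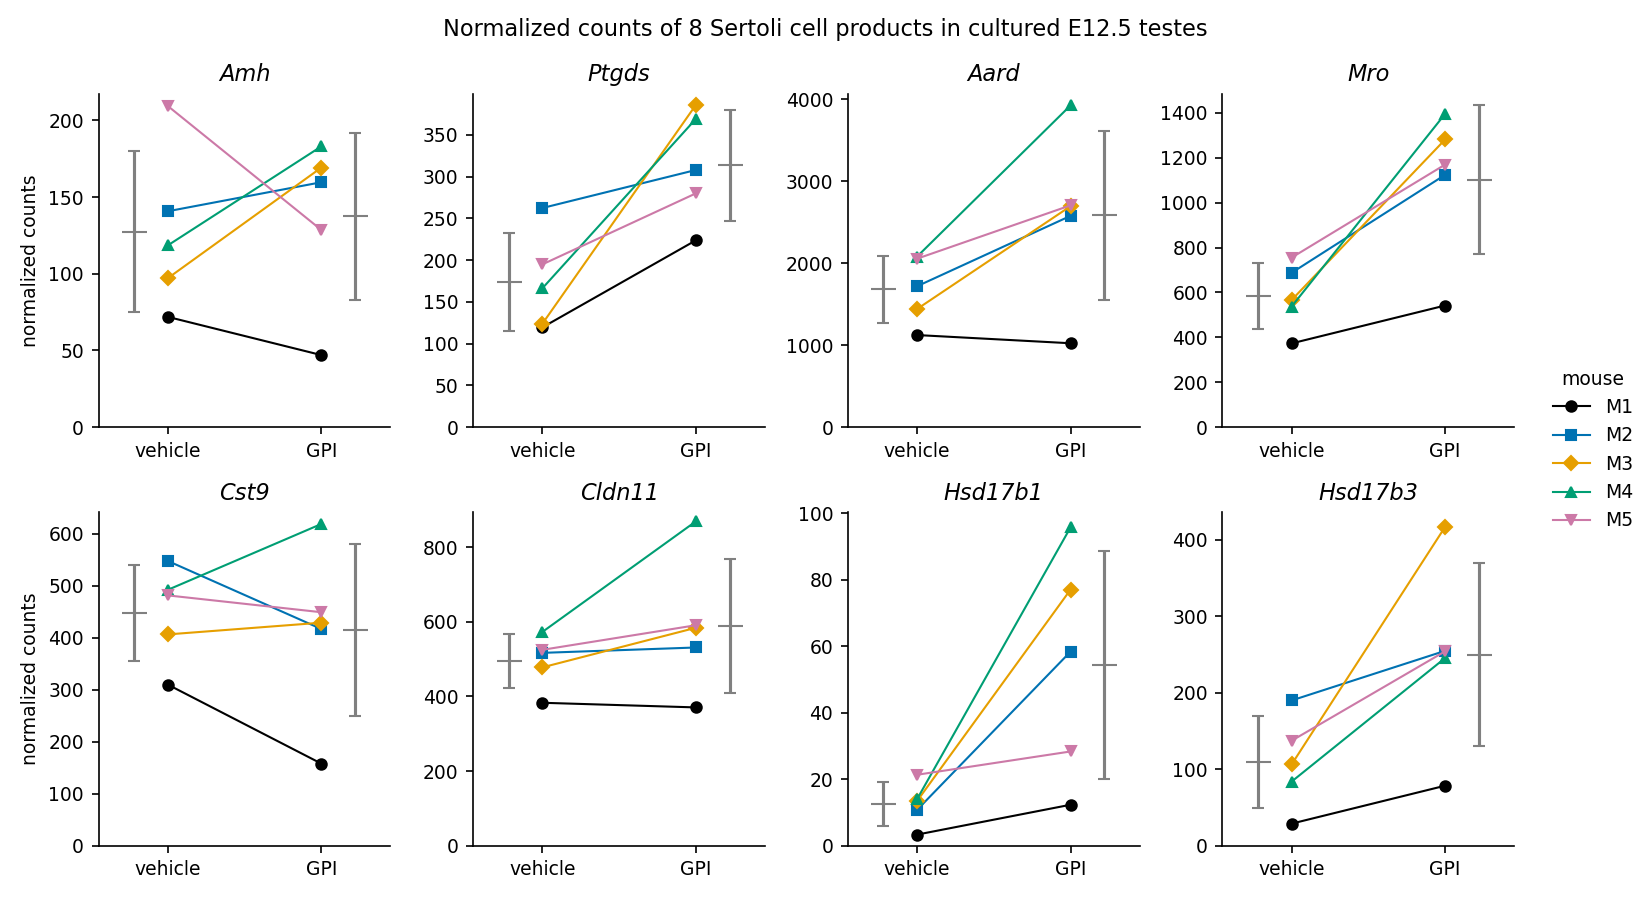
Normalized counts of the 8 genes (vertical axes, linear from 0) in the vehicle and GPI gonads; each line joins the 2 gonads of 1 embryo, and the grey marks beside them are the mean ± SD of 5 libraries. M1 is the lowest line in every panel, and the ranges of the 2 treatments overlap for each gene, including Hsd17b1 with 3.32 to 21.3 normalized counts in vehicle and 12.3 to 95.8 with GPI.

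Markers of other cell types moved with the treatment. Of 7 endothelial markers, 7 fell with GPI. Their summed level was 7255, 7571, 6808, 7969.7 and 7013 normalized counts in the vehicle gonads of M1 to M5 and 788, 948, 649.6, 519.9 and 678 in the GPI gonads, and Cdh5 had the most counts with vehicle and Kdr with GPI. Among 8 tested germ cell markers of 11 listed, 6 fell. Sycp3 (log2 fold change -0.45) and Dnd1 (-0.50) did not pass. Each overlaps a gene on the other strand, Chpt1 for Sycp3 and Wdr55 for Dnd1, and counting ignored strand. The part of such reads in their counts was not tested. The summed germ cell level was 1264, 2372, 1506, 1986 and 834 with vehicle and 317, 299, 231, 136 and 294 with GPI. Dazl had the most counts with vehicle. Sycp3 had the most with GPI, and gave 143, 169, 173, 75.8 and 132 of those sums in M1 to M5. All 5 GPI libraries lay below all 5 vehicle libraries for both sums. Of 6 macrophage markers 5 fell, with sums of 811, 686, 663, 557 and 649.8 in vehicle and 366, 278, 358, 189 and 160.2 with GPI, and Lyz2 had the most counts in both treatments.

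Fetal Leydig cell markers went the other way: 5 of 5 tested rose, with summed levels of 1304, 2834, 4132, 2042 and 5584 normalized counts in vehicle and 10095, 10665, 16559, 18916 and 13747 with GPI. Hsd3b1, which has closely related copies that counting may not separate, had the most counts with vehicle and Cyp11a1 with GPI, and Insl3 was near 0 in both treatments, with means of 1.23 and 2.86. Of 5 tested pre-granulosa markers 1 rose (Bmp2) and 1 fell (Wnt4), with sums of 1789.6, 1867, 1826, 1589.8 and 1523 in vehicle and 1491, 1255, 1305, 986 and 1394 with GPI. Foxl2, which defines pre-granulosa cells, averaged 30.6 ± 16.4 and 20.3 ± 7.52 normalized counts (SD, n = 5 each). Of 7 interstitial progenitor markers 1 rose (Pdgfra) and 3 fell, Tcf21 and Gli1 among them, and their sums, 15503, 16905, 17732, 15071 and 17361 in vehicle and 16245, 18000.0, 16305, 15393 and 18519 with GPI, overlapped. Some of these calls were lost with 4 embryos, at log2 fold changes near those of all 5: Bmp2 (0.61 with all 5) at 0.49 without M4, Gli1 (-0.42) at -0.38 without M3 and -0.41 without M4, and Tcf21 (-0.30) at -0.27, -0.26 and -0.29 without M2, M3 and M4. Without the pairing by embryo (no replicate block) Bmp2 and Gli1 did not pass either. In whole gonads, fewer cells of a type and less RNA per cell cannot be told apart, and a loss of other cells raises the share of counts that Sertoli cells contribute. The part of these shifts in the changes of the 8 genes was not tested.

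**Figure D2:**
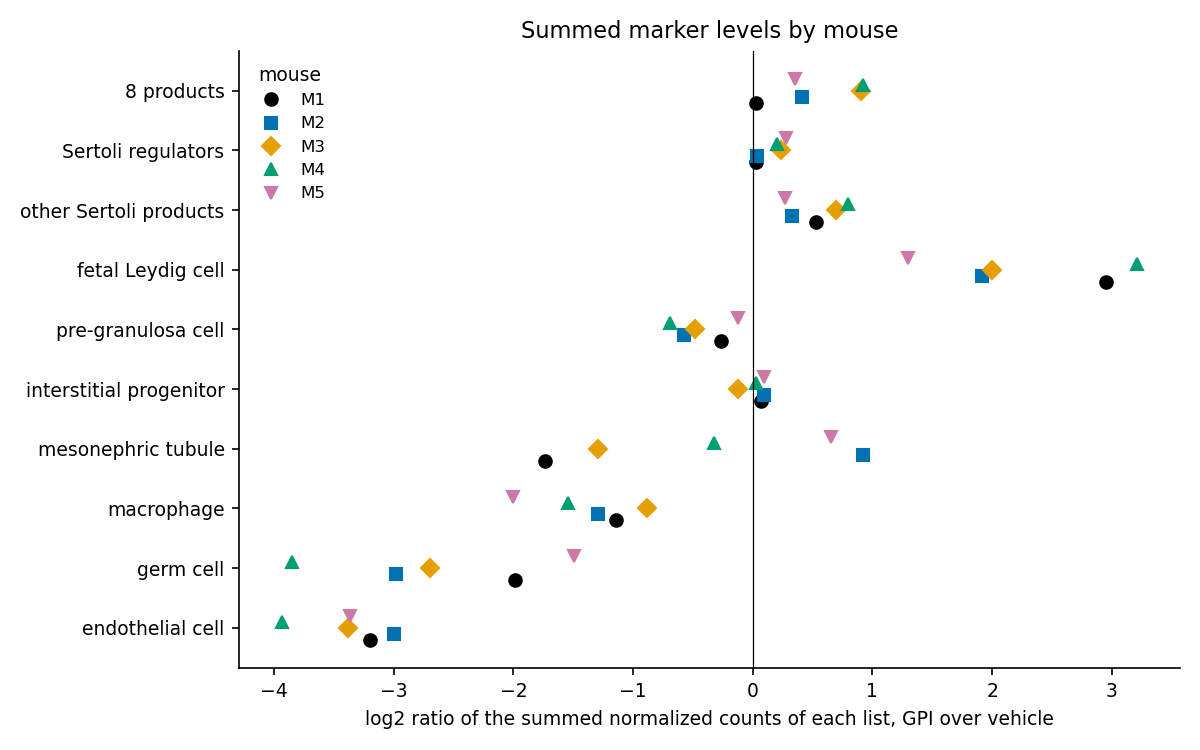
Log2 ratio of GPI over vehicle (horizontal axis) of the summed normalized counts of each marker list, with 1 point per embryo. Endothelial and germ cell sums lie left of 0 and fetal Leydig cell sums right of 0 in 5 of 5 embryos, while the 8 products lie between 0.02 in M1 and 0.92 in M4.

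Amh (Entrez Gene 11705, chromosome 10 from 80805248 to 80807648, plus strand, mm10) had 71.9, 141, 97.1, 119 and 209 normalized counts in the vehicle gonads of M1 to M5 and 47.0, 159.7, 169, 183 and 129 in the GPI gonads. The groups overlapped almost fully: GPI was above vehicle in M2, M3 and M4 and below it in M1 and M5, and the vehicle gonad of M5 was the highest of all. The difference was smaller than the spread between embryos (log2 fold change 0.08, standard error 0.22, 95% confidence interval -0.40 to 0.56, edgeR with Benjamini-Hochberg adjustment, adjusted p = 0.842). Without M3 the log2 fold change was -0.12 and without M4 it was -0.07, so its sign rested on single embryos. The interval still allows a change of 0.758 to 1.48 times the vehicle level.

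The receptor side of AMH signalling was measured by 11 genes, of which 1 rose and 1 fell, with a median log2 fold change of 0.05. Amhr2, the specific receptor, had 151 ± 28.4 normalized counts with vehicle and 158 ± 42.2 with GPI (SD, n = 5 each), a log2 fold change of 0.05 that turned to -0.06 without M3. Bmpr1a, a type I receptor that AMH shares with bone morphogenetic proteins, rose by 0.24 on the log2 scale (adjusted p = 0.0133, edgeR) and no longer passed without M3 (0.22) or without M5 (0.22). Smad5, which carries the signal of these receptors to the nucleus, fell from 3737 ± 89.6 to 2913 ± 147 normalized counts (SD, n = 5 each; log2 fold change -0.36, edgeR adjusted p = 0.000924) and was higher in 0 of 5 embryos. Smad1, which acts beside it, had a log2 fold change of -0.28, was higher in 0 of 5 embryos and did not pass with all 5, but passed with total counts alone (-0.33) and without M2 (-0.35). Id1, Id2 and Id3, which such signals induce, did not pass.

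Ptgds (Entrez Gene 19215, chromosome 2 from 25466712 to 25469749, minus strand, mm10) had 119.5, 263, 124, 166 and 195 normalized counts in the vehicle gonads and 224, 308, 386, 369 and 280.1 in the GPI gonads, in the order M1 to M5. GPI was the higher in each embryo, from 1.17-fold in M2 to 3.08-fold in M3 (folds per embryo, here and below, are with a prior count of 2 added to both gonads), and the groups overlapped only where the vehicle gonad of M2 exceeded the GPI gonad of M1. The rise was called (log2 fold change 0.88, standard error 0.18, 95% confidence interval 0.50 to 1.26, edgeR with Benjamini-Hochberg adjustment, adjusted p = 0.00233).

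Other enzymes of prostanoid metabolism did not move as a block: of 9 tested genes of 12 listed, 3 rose and 1 fell, with a median log2 fold change of -0.30. Those that rose were Hpgd, which inactivates prostaglandins (mean 208 to 466 normalized counts, n = 5 each; log2 fold change 1.17), Ptges, which makes prostaglandin E (1.17), and Pla2g4a, which frees arachidonic acid (0.44). Ptges3 fell as well, a call lost when any 1 of the 5 embryos was left out, where its log2 fold change ran from -0.29 to -0.17, and without the pairing. The other prostaglandin D synthase, Hpgds, did not pass, and Ptgs1, which supplies the common precursor, had a log2 fold change of -0.30 (-0.12 without M3 and -0.52 without M5) that did not pass. Of the prostaglandin D receptors, Ptgdr had 0 counts in all 10 libraries and Ptgdr2 had too few to be tested.

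Hsd17b3 (Entrez Gene 15487, chromosome 13 from 64058274 to 64089201, minus strand, mm10) had 28.8, 189.7, 106, 83.7 and 137 normalized counts in the vehicle gonads of M1 to M5 and 78.4, 255, 417, 245 and 254 in the GPI gonads. It was higher with GPI in 5 of 5 embryos, from 1.34-fold in M2 to 3.87-fold in M3, although the M1 gonad with GPI stayed below 4 of the vehicle gonads. The rise was called (log2 fold change 1.23, standard error 0.20, 95% confidence interval 0.79 to 1.66, edgeR with Benjamini-Hochberg adjustment, adjusted p = 0.000545). Without the pairing by embryo (no replicate block) the adjusted p was 0.0405, the largest over the 12 alternatives, whose smallest was 2.96e-07.

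Hsd17b1 (Entrez Gene 15485, chromosome 11 from 101078411 to 101080505, plus strand, mm10) had the fewest counts of the 8, with raw counts of 3, 9, 12, 14 and 28 in the vehicle libraries of M1 to M5 and 11, 72, 81, 91 and 26 in the GPI libraries. Scaled, these were 3.32, 10.7, 13.4, 13.9 and 21.3 normalized counts with vehicle and 12.3, 58.4, 77.0, 95.8 and 28.3 with GPI. With the prior count of 2, M2, M3 and M4 were higher by 4.74-fold, 5.13-fold and 6.13-fold and M5 by 1.3-fold. M1 was higher by 2.69-fold, although its GPI gonad lay within the vehicle range. The change was called (log2 fold change 2.001, standard error 0.40, 95% confidence interval 1.14 to 2.86, edgeR with Benjamini-Hochberg adjustment, adjusted p = 0.00221) and had the highest fold of the 8 genes. For Hsd17b1, 4 of 5 libraries in vehicle and 5 of 5 with GPI reached the count minimum of the low-count filter. With no low-count filter its log2 fold change was 1.995 (edgeR adjusted p = 8.67e-05), within a range of adjusted p from 4.93e-05 to 0.02 over its alternatives, and it could not be tested with at least 10 counts in every library.

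The balance of the 2 enzymes was variable. With a prior of 2 added to the normalized counts of both genes, the ratio of Hsd17b1 to Hsd17b3 was 0.173, 0.0664, 0.142, 0.186 and 0.168 in the vehicle gonads of M1 to M5 and 0.178, 0.235, 0.189, 0.395 and 0.119 with GPI. The ratio was higher with GPI in 4 of 5 embryos and lower in M5, a mean log2 difference of 0.57 ± 0.91 (SD, n = 5; exact two-sided sign-flip permutation test, p = 0.313, where 5 embryos cannot give less than 0.0625). Without M2 the mean difference was 0.26, and with a prior of 0.5 it was 0.70.

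Of the other enzymes of the Hsd17b family, 8 of 9 listed genes were found in the table and 5 were tested. Hsd17b7, which acts in cholesterol synthesis, rose from 324 ± 59.0 to 609.6 ± 216 normalized counts (SD, n = 5 each; log2 fold change 0.86, edgeR adjusted p = 0.00118). Hsd17b4 (0.24), Hsd17b12 (0.24, and 0.15 without M4), Hsd17b10 and Hsd17b11 did not pass. Hsd17b2, which oxidizes testosterone, was near 0, with means of 0.445 in vehicle and 0 with GPI. The steps before Hsd17b3 were measured by a list of 8 androgen genes, which shares 4 with the fetal Leydig cell markers. Of 7 tested, 6 rose: Star (0.79), Cyp11a1 (2.90), Cyp17a1 (3.90), Hsd3b1 (1.75), Srd5a1 and Esr1, with log2 fold changes in parentheses. Srd5a1 did not pass without M4, at 0.63. Cyp19a1, which makes estrogens, had too few counts to be tested.

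Cldn11 (Entrez Gene 18417, chromosome 3 from 31149920 to 31164326, plus strand, mm10) had 383, 517, 478, 573 and 525 normalized counts in the vehicle gonads of M1 to M5 and 370.5, 531, 584, 869 and 591 in the GPI gonads. The GPI gonad of M4 was the highest of the 10, those of M3 and M5 lay above the vehicle range and M1 was lower with GPI, and M2 differed by 1.03-fold. The difference did not pass the test (log2 fold change 0.21, standard error 0.11, 95% confidence interval -0.01 to 0.44, edgeR with Benjamini-Hochberg adjustment, adjusted p = 0.172), with GPI higher in 4 of 5 embryos. Without M4 the log2 fold change was 0.11.

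Tight junction genes split: of 13 tested of 17 listed, 3 rose and 3 fell, with a median of 0.06. Tjp1, a scaffold of tight junctions in many cell types, fell from 7335 ± 546 to 4016 ± 229 normalized counts (SD, n = 5 each; log2 fold change -0.87, edgeR adjusted p = 1.16e-06), and no GPI value reached the vehicle range. Cldn5, a claudin of endothelial cells, fell with a log2 fold change of -2.999. Jam2 rose, with a log2 fold change of 0.90, as did Jam3 and Cldn12. The call of Jam3 was lost with total counts alone and without M1 (0.27), M2 (0.33), M3 (0.39) or M4 (0.35), and that of Cldn12 without M3 (0.42), M4 (0.38) or M5 (0.40). Ocln, which seals the junction together with claudins, did not pass, nor did F11r. Tjp3, Cldn3, Cldn4 and Cldn10 had too few counts to be tested.

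Cst9 (Entrez Gene 13013, chromosome 2 from 148835147 to 148838737, plus strand, mm10) had 309.9, 548, 406, 492 and 481 normalized counts in the vehicle gonads of M1 to M5 and 158, 417, 429, 619 and 449 in the GPI gonads. GPI was lower in M1, M2 and M5 and higher in M3 and M4, and the groups overlapped. The difference did not pass (log2 fold change -0.19, standard error 0.15, 95% confidence interval -0.51 to 0.14, edgeR with Benjamini-Hochberg adjustment, adjusted p = 0.422), and its size depended on single embryos: the log2 fold change was -0.04 without M1 and -0.33 without M4.

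Among 5 tested cystatins of 10 listed beside Cst9, 1 rose. Cst8 had 87.6 ± 7.25 normalized counts with vehicle and 185 ± 79.2 with GPI (SD, n = 5 each; log2 fold change 0.99, edgeR adjusted p = 0.00475) and was higher in 4 of 5 embryos. Cst3, which had the most counts of the list in both treatments and is made by many cell types, had a log2 fold change of -0.09 that turned to 0.10 without M2. Cst13, chosen for mention after its values were seen, had raw counts of 0 in the vehicle libraries of M1 to M4 and 2 in M5, against 16, 9, 21, 13 and 7 in the GPI libraries of M1 to M5, and was left out of the test by the low-count filter. Cst10 had 0 counts in all libraries.

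Mro (Entrez Gene 71263, chromosome 18 from 73859385 to 73879134, plus strand, mm10), which encodes the nuclear protein maestro and is expressed in male gonads, had 373, 687, 566, 537 and 755 normalized counts in the vehicle gonads of M1 to M5 and 542, 1124, 1281, 1395 and 1169.5 in the GPI gonads. It was higher with GPI in each embryo, and without M1 every GPI value would exceed every vehicle value, since the GPI gonad of M1 alone lay within the vehicle range. The rise was called (log2 fold change 0.89, standard error 0.12, 95% confidence interval 0.63 to 1.15, edgeR with Benjamini-Hochberg adjustment, adjusted p = 0.000101), with the smallest p of the 8 genes.

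Aard (Entrez Gene 239435, chromosome 15 from 52040107 to 52045722, plus strand, mm10), which encodes an alanine- and arginine-rich domain protein of the testis, had 1124, 1719.5, 1441, 2081 and 2056 normalized counts in the vehicle gonads and 1024, 2579, 2697, 3927 and 2707 in the GPI gonads, in the order M1 to M5. The GPI gonads of M2 to M5 exceeded all vehicle gonads, and that of M1 was the lowest of the 10. The rise was called (log2 fold change 0.54, standard error 0.12, 95% confidence interval 0.27 to 0.81, edgeR with Benjamini-Hochberg adjustment, adjusted p = 0.00614) and was seen in 4 of 5 embryos. The call was lost without M3 (log2 fold change 0.43, adjusted p = 0.0502) and, with the pairing by embryo removed (no replicate block), at 0.62 (adjusted p = 0.0929), both from edgeR. Over the 12 alternatives the adjusted p ran from 9.43e-05 to 0.0929.

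Levels can be compared between genes only per length of transcript. On that scale, in normalized counts per kilobase with vehicle, Aard came first (1249.5 ± 303, SD, n = 5), then Cst9 (651), Mro (307), Cldn11 (265), Ptgds (193), Hsd17b3 (84.8), Amh (76.4) and Hsd17b1 (9.37 ± 4.84). The ranges of Aard and Cst9, of Cst9 and Mro, and of Amh and Hsd17b1 did not overlap, whereas from Mro to Amh each gene overlapped the next in the order. With GPI, Ptgds (348) stood above Cldn11 (315), and the order of the others was as with vehicle.

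**Figure D3:**
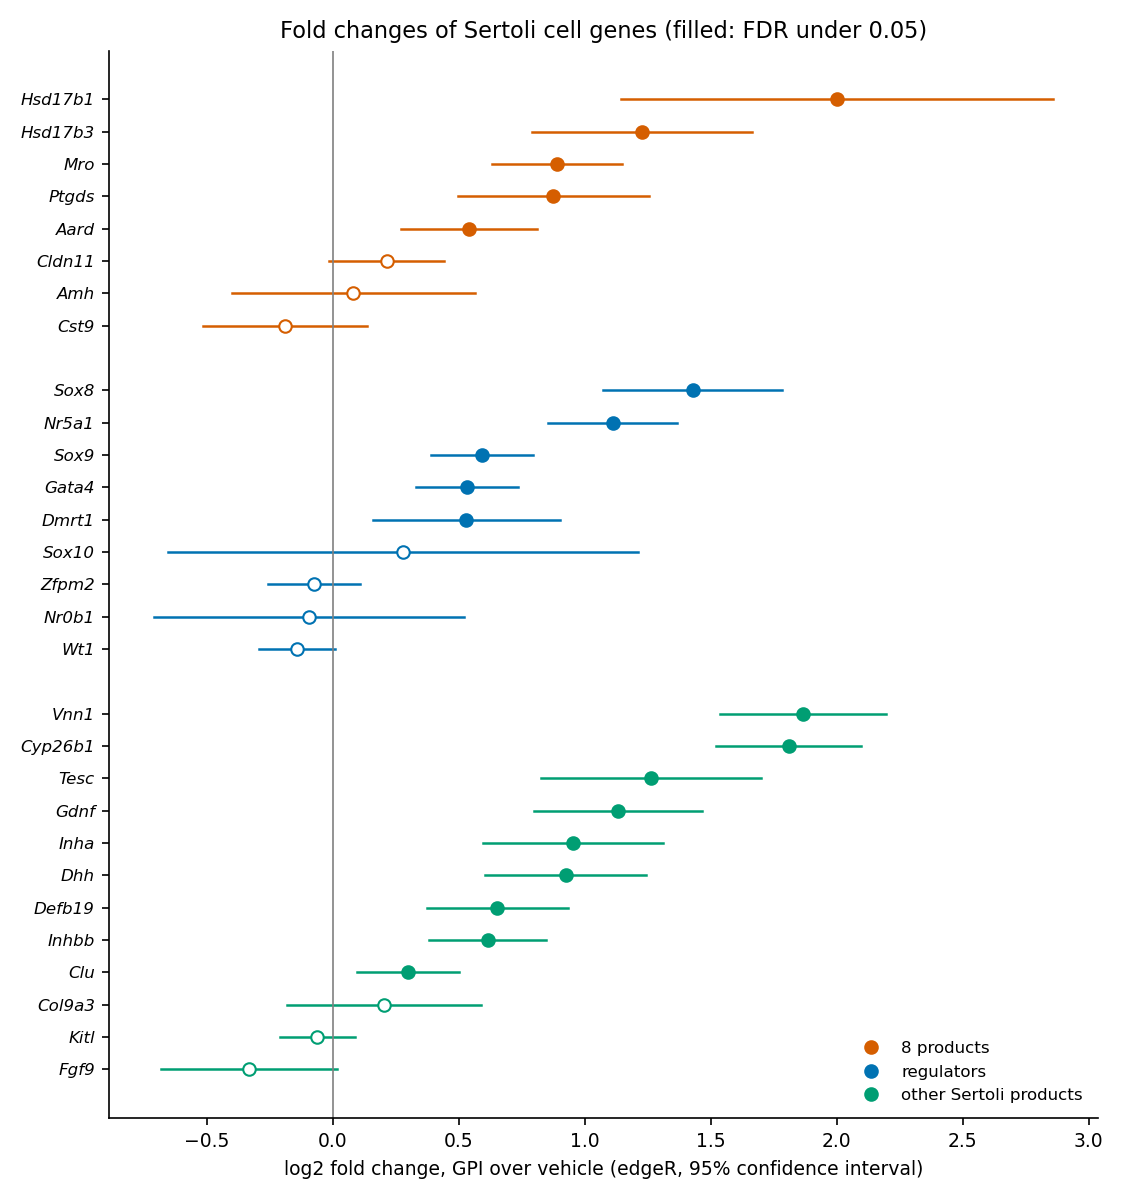
Log2 fold change of GPI over vehicle (horizontal axis) with its 95% confidence interval for the 8 products, 9 tested Sertoli regulators and 12 tested other Sertoli products, edgeR; filled points passed a false discovery rate of 0.05. Of the 8, Hsd17b1 lies farthest right at 2.001 and Cst9 farthest left at -0.19.

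Genes that direct Sertoli cell fate were read from the same fit. Of 9 tested of 10 listed regulators, 5 rose, with a median log2 fold change of 0.53. Sox8, a relative of Sox9 that acts beside it, rose from 108 ± 23.0 to 301 ± 103 normalized counts (SD, n = 5 each; 1.43 on the log2 scale), and Nr5a1, a nuclear receptor of gonadal somatic and Leydig cells, from 261 ± 60.7 to 557 ± 70.3 (1.11). Gata4, Dmrt1 and Sox9 (0.59) rose as well, but the call of Dmrt1 was lost with total counts alone, without the pairing and without M2 (0.51), M3 (0.51), M4 (0.40) or M5 (0.50). Sox9 itself had 1120.0, 1545, 984, 1185 and 1321 normalized counts in the vehicle gonads of M1 to M5 and 1494, 1938, 1834, 2142 and 1836 with GPI. Its groups overlapped by 1 pair, the vehicle gonad of M2 and the GPI gonad of M1. Wt1, Zfpm2, Nr0b1 and Sox10 did not pass, and Sry had 0 in vehicle and a mean of 0.324 normalized counts with GPI.

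Further Sertoli products were measured in the same way: of 12 tested of 13 listed, 9 rose, and the median log2 fold change was 0.79 beside 0.71 for the 8. Cyp26b1, which degrades retinoic acid, rose from 788 ± 199 to 2720.5 ± 354 normalized counts (SD, n = 5 each; 1.81 on the log2 scale, edgeR adjusted p = 4.94e-07). Vnn1 (1.87), Gdnf (1.13), the hedgehog ligand Dhh (0.92), which acts on Leydig cells, and the inhibin subunits Inha and Inhbb rose too, as did Clu, which had the most counts of the list in both treatments. Clu did not pass with total counts alone, without the pairing or without M1 (0.29), M3 (0.25) or M4 (0.20). Kitl, the ligand of the germ cell receptor Kit, did not pass, nor did Fgf9, which sustains Sox9.

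Each product was also set against Sox9, which itself rose, as a ratio within each library with a prior of 2 added to the normalized counts of both genes. In M1 to M5 the difference of GPI minus vehicle in log2(Cst9 / Sox9) was -1.38, -0.72, -0.82, -0.52 and -0.57, lower in each embryo. For Cldn11 it was -0.46, -0.29, -0.61, -0.25 and -0.30 and for Amh -1.01, -0.15, -0.11, -0.23 and -1.17, again lower in each. In contrast, Mro gave 0.12, 0.38, 0.28, 0.52 and 0.16 and Hsd17b3 gave 0.97, 0.09, 1.06, 0.68 and 0.40, higher in 5 of 5. Averaged over embryos (log2, ± SD, n = 5), these came to -0.80 ± 0.34 for Cst9, -0.38 ± 0.15 for Cldn11, -0.53 ± 0.51 for Amh, 0.29 ± 0.17 for Mro and 0.64 ± 0.40 for Hsd17b3. Each of the 5 had p = 0.0625 in the exact two-sided sign-flip permutation test. That is the smallest p this test can give with 5 embryos, so no ratio could pass 0.05 by it. Hsd17b1 averaged 1.21 ± 0.81 (exact p = 0.125; 1.36 with a prior of 0.5) and was lower in M5 alone, Ptgds 0.29 ± 0.33 (exact p = 0.188) and Aard -0.06 ± 0.30 (exact p = 0.75). In all, 8 ratios to Sox9 were tested.

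**Figure D4:**
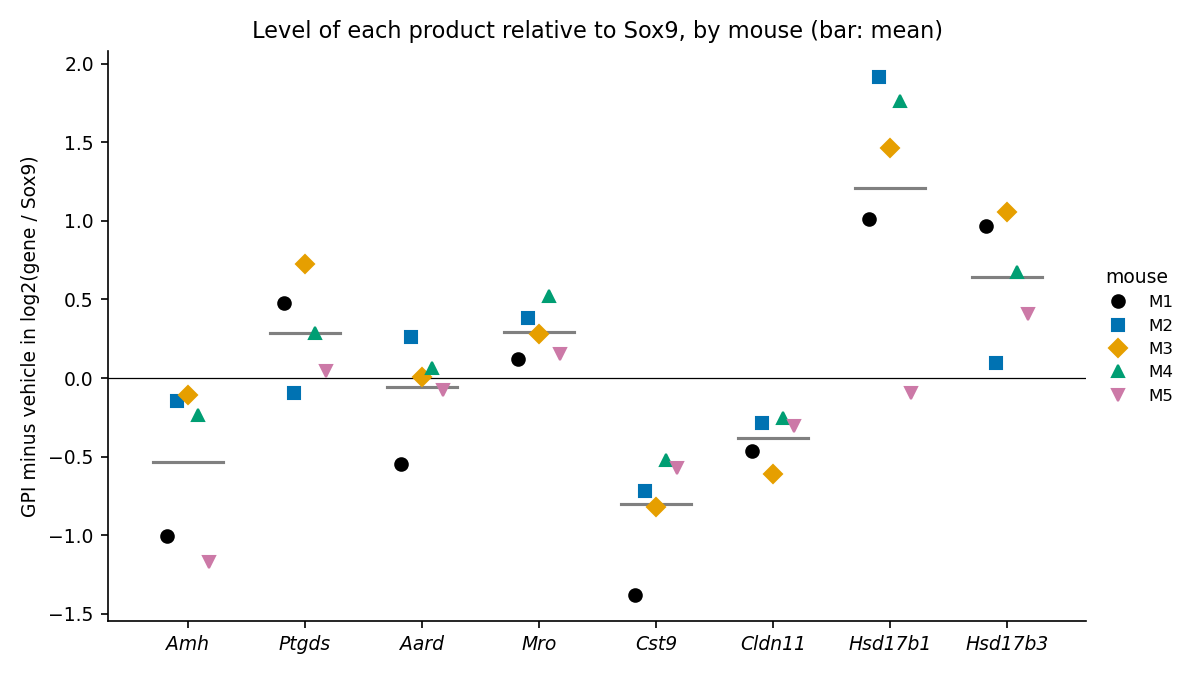
Difference between GPI and vehicle in log2(gene / Sox9) (vertical axis) for each embryo, with the grey bar at the mean of 5. Amh, Cst9 and Cldn11 lie below 0 and Mro and Hsd17b3 above 0 in 5 of 5 embryos, and Aard straddles 0 with a mean of -0.06.

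Without the pairing by embryo (no replicate block), permuting the treatment labels gave exact p-values, unadjusted, of 0.0159 for Cst9, 0.0476 for Cldn11, 0.0635 for Hsd17b1, 0.0714 for Ptgds, 0.159 for Amh, 0.238 for Mro, 0.278 for Hsd17b3 and 0.857 for Aard, at the same mean differences. With the geometric mean of Sox9, Sox8, Wt1, Gata4 and Nr5a1 as reference, Cst9 (-0.91), Amh (-0.64) and Cldn11 (-0.49) again had an exact p of 0.0625. Mro came to 0.19 (exact p = 0.25) and Hsd17b3 to 0.53 (exact p = 0.125), so that neither was higher in 5 of 5 embryos against this reference. Ptgds came to 0.18 there, and to 0.18 against Sox9 without M3. Aard turned from -0.06 to 0.06 without M1 and was -0.14 without M2.

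Embryos also differed in how far the 8 genes moved. Over the 8, the log2 ratio of the GPI to the vehicle gonad had a median of 1.04 in M3 and 1.03 in M4, where 8 of 8 were higher, against 0.24 in M1, 0.32 in M2 and 0.39 in M5, where 4, 7 and 6 were higher. Over all tested genes the median lay between 0.01 and 0.02 in each embryo. Cst9 had the smallest ratio of the 8 in M1, M2, M3 and M4, and Amh in M5. Hsd17b1 had the highest in M1 to M4, and Hsd17b3 in M5.

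With the mean of each treatment removed, the 8 genes varied together. Pearson's r of log2 normalized counts over the 10 libraries was above 0 for 28 of 28 pairs, from 0.63 to 0.97 with a median of 0.84. The points share embryos, and the low M1 libraries carry much of this: without M1 the median r was 0.49 over 8 libraries and the range -0.26 to 0.89. Aard, Cst9 and Cldn11 remained close then, with r of 0.82 for Aard and Cst9, 0.89 for Aard and Cldn11 and 0.88 for Cst9 and Cldn11, as did Amh and Mro at 0.84. Hsd17b3 was nearest to Ptgds, at 0.72, and its r with Hsd17b1 was 0.08. These values are descriptions without a test.

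**Figure D5:**
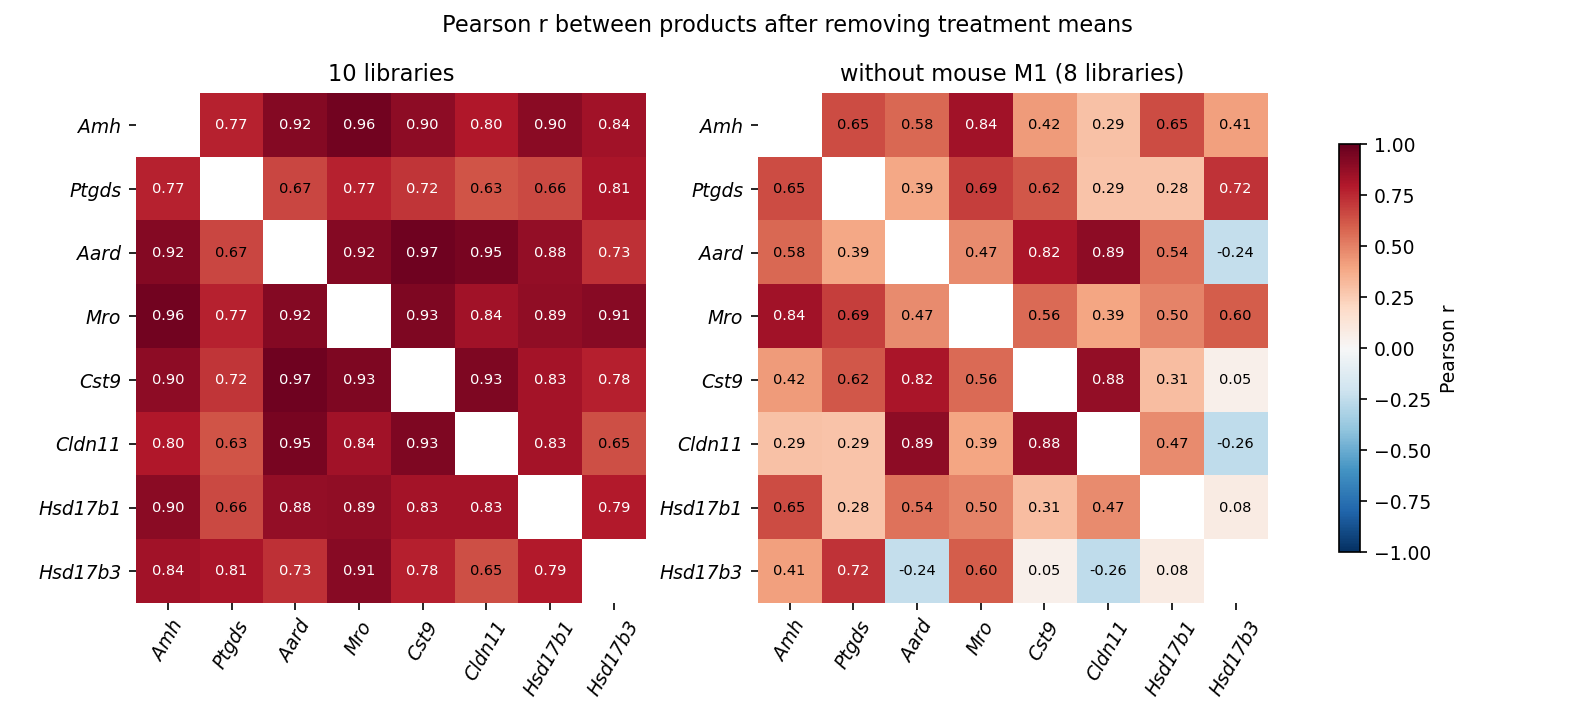
Pearson r of log2 normalized counts between the 8 genes after subtracting treatment means, over 10 libraries (left) and without M1 (right, 8 libraries); red is positive and blue negative. Median r is 0.84 on the left and 0.49 on the right.

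Genes with the most similar pattern were sought among tested genes with a mean of at least 50 normalized counts, by r over the same 10 libraries with treatment means removed. For Amh they were Camkk2 (0.97), Phyh (0.97) and Mro (0.96), and Camkk2 and Phyh also led the list of Mro, where Glb1l3 (0.97) followed. Cst9 came closest to Ttyh1 (0.98), Glb1l3 (0.98) and Fyn (0.98), Aard to Tmem114 (0.98), Vdac3 (0.98) and Slc45a4 (0.98) and Cldn11 to Slmap (0.97), Plxna1 (0.96) and Aard (0.95). The nearest to Ptgds were Tnik (0.96), Mrpl4 (0.96) and 6330415B21Rik (0.95). Hsd17b1 had Foxo1 (0.97), Slc25a35 (0.96) and Gmnn (0.95) and Hsd17b3 had Hdac6 (0.95), Hspb1 (0.95) and Slc7a5 (0.95). These are over libraries that include the low M1 pair.

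Promoter windows, from 250 bases before to 50 after the transcription start, were found in the RefSeq table (GRCm38.p6) for 4 of the 8 genes, Ptgds, Cst9, Cldn11 and Hsd17b3, and not for Amh, Aard, Mro and Hsd17b1. They were searched on both strands for 3 motifs of factors that act on Sertoli genes. AACAAT, bound by SOX proteins, was in 10.7% of all 32851 windows of this length, AAGGTCA, bound by NR5A1, in 4.72% and AGATAA, bound by GATA factors, in 11.2%. The count was 0 of 4 windows for each motif, which says only that these letters are not there. The 250 bases before the start are shown for Ptgds (chr2:25469750-25469999, minus strand) and Hsd17b3 (chr13:64089202-64089451, minus strand), which both rose, 5′ to 3′ and with no letters in capitals because no motif was found. Their GC content was 58.4% and 47.2%, against 63.6% for Cldn11 and 45.6% for Cst9 and a median of 52.4% over all windows.
Ptgds: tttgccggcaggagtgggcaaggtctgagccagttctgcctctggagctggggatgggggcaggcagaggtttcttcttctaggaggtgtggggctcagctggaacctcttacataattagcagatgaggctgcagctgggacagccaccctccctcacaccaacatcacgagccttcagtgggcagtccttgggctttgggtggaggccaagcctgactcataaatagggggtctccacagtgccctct
Hsd17b3: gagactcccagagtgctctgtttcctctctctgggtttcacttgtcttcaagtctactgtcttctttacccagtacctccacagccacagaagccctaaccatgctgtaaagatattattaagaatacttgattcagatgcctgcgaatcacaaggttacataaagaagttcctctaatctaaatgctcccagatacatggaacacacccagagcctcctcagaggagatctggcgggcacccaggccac

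The values come from 5 embryos at 1 dose and 1 time point, with 1 gonad for each treatment, and measure RNA and not protein or hormone. All libraries are of whole gonads, in which several other cell types lost or gained marker RNA, so a higher share of Sertoli cells and more RNA per Sertoli cell are not separated. Embryo M1 was low in all 8 genes under both treatments. Hsd17b1 rests on few counts in vehicle, the call of Aard on M3 and on the pairing, and the sign of Amh on single embryos. In the paired sign-flip test the ratios to Sox9 cannot pass a threshold of 0.05 with 5 embryos.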

How the data were processed

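The 10 libraries of cultured mouse testis were analysed. The authors aligned reads to mm10 with STAR 2.5 and counted them per gene with featureCounts of Subread 1.5.0-p1, ignoring strand, and deposited these raw counts for 24470 entries; 0 other columns of per-sample values were found. No entry of the 8 genes overlaps another entry in the deposited coordinates. Counts were filtered with filterByExpr (minimum count 10, minimum total 15), scaled by TMM and tested in edgeR 4.0.16 (R 4.3.3) by the quasi-likelihood F test with the embryo as replicate block, as labels tie same-numbered gonads to 1 animal, and Benjamini-Hochberg adjustment over 13941 genes. Deviations from the treatment mean correlated from -0.0398 to 0.155 within embryos, with a mean of 0.06, and with a mean of -0.0147 between embryos. Chi-square per degree of freedom between libraries of 1 treatment was 6.42 to 27.8, so none were duplicates. Precision rests on the spread between embryos. Log2 ratios used a prior count of 2 and were compared by exact sign-flip tests over 5 embryos, whose p-values are unadjusted because none can pass. Transcript lengths are the longest GENCODE M21 transcript with a RefSeq mRNA. The alternatives were DESeq2 1.42.0, limma-voom (limma 3.58.1), no replicate block, scaling by DESeq2 size factors or by total counts, no filter, at least 10 counts in every library, each embryo left out, a prior of 0.5, a 5-gene reference and correlations without removing treatment means. Any gene of the context lists could be named, with values for the 8 genes and, in each list, the first gene and up to 3 with the smallest p; for similarity these were the 3 highest r. Of further list genes said to rise or fall, 10 were chosen after their values were seen and went through the same alternatives. The genes and lists were chosen with earlier results of these data known. Promoter windows are from RefSeq. The procedure was tested on simulated data, where 13 of 149 calls were false.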

Additional observations from a re-analysis of the deposited data

Results flagged for a closer look

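The summed prostanoid metabolism genes of the GPI gonad of M3, 6225.8 normalized counts, lay apart from the other GPI gonads, which ran from 5647 to 5782, and Cst13 in the vehicle gonad of M5, 1.52 normalized counts, from 0 in the other vehicle gonads. These were 2 of 93 groups of 5 values examined, and chance sets a value apart in about 1 in 20 such groups.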

How the results depend on the processing

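Leaving out 1 embryo at a time, genes called higher ranged from 969 (without M3) to 1430 and genes called lower from 1287 to 1686, against 1544 and 1654 with all 5 embryos; the cause was not tested. The number of the 8 products called higher was 5 with DESeq2, limma-voom, either other scaling and no low-count filter, and 4 without the replicate block or without M3, where Aard was lost, and with at least 10 counts in every library, where Hsd17b1 could not be tested. Without the replicate block 1498 genes were called higher and 1610 lower, and among the 8 the pairing changed the call of Aard alone. Total counts alone gave 1238 higher and 1972 lower and shifted the median of all genes from 0.02 to -0.03. Of 95 log2 fold changes of the 8 genes under alternatives, 91 kept their direction and side of the threshold, 2 were no longer called (Aard) and 2 changed sign (Amh). Without single embryos the log2 fold change of Amh ran from -0.12 to 0.29, that of Amhr2 from -0.058 to 0.17 (-0.0040 with total counts alone) and that of Cst3 from -0.17 to 0.10. Of 558 such values of 47 context genes (the first and the 3 smallest p of each list), 539 kept direction and side, 10 lost and 5 gained the call and 4 changed sign. Of 120 values of 10 further genes said to rise or fall, chosen after seeing the data, 94 kept direction and side and 26 lost the call (6 each for Dmrt1 and Ptges3, 5 each for Clu and Jam3, 3 for Cldn12 and 1 for Srd5a1). The difference in log2(Aard / Sox9) ran from -0.14 to 0.062. Relative to Sox9 with no replicate block, Cst9 at -0.80 and Cldn11 at -0.38 passed an unadjusted 0.05 and the other 6 did not. Paired signs of 5 embryos cannot pass it. The median r between the 8 genes, with embryos left out as an alternative chosen after seeing the data, ran from 0.49 without M1 to 0.89, and without removing treatment means it was 0.78. Depth limits Hsd17b1 most, with 3 to 28 counts in vehicle libraries.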
